A study of Mus musculus with 10 samples.

Results

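The genes described here are the nuclear genes of respiratory complexes II to V in mouse oocytes. They were chosen by symbol, as every gene of the count table whose symbol starts with Sdh, Uqcr, Atp5, or Cox followed by 4 to 8 or 10 to 20, together with Cyc1. The rule found 59 of the table's 18493 genes, 8 of complex II, 9 of complex III, 25 of complex IV and 17 of complex V. By role they are 45 subunits, 13 assembly factors and 1 supercomplex factor, Cox7a2l, and the rule found 0 pseudogenes and 0 non-subunits of the Atp5s kind. The 10 libraries of ovarian oocytes were profiled by SMART-seq2, which primes on the poly(A) tail and amplifies full-length cDNA, so a level here is that of RNA caught by its tail. The groups were young oocytes (n = 3), labelled as controls, aged oocytes (n = 3), and a group named for spermidine (n = 4) and labelled as a rescue, taken here as aged oocytes given spermidine, a polyamine. The sources used here give no strain, age, dose, route or number of oocytes or animals behind a library. The p-values below therefore reflect how these libraries varied within groups, which may be technical.

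Each of these complexes sits in the inner mitochondrial membrane. Complex II, succinate dehydrogenase, takes electrons from succinate in the tricarboxylic acid cycle and is the only one whose subunits are all nuclear-encoded. Complex III passes electrons from ubiquinol to cytochrome c, complex IV passes them on to oxygen, and complex V, the ATP synthase, uses the resulting proton gradient to make ATP. The catalytic core of complex IV and parts of complexes III and V are encoded by mitochondrial DNA, and their nuclear genes supply the remaining subunits and the assembly factors that insert haem, copper and iron-sulphur clusters. Oocytes rely largely on oxidative phosphorylation of pyruvate for ATP, and their mitochondria pass to the embryo.

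Library totals lay between 24222185 and 28730790 counts, and the members held 0.499% to 0.706% of them. Levels are given as CPM, the count relative to the library's scaled total, with TMM scaling factors of 0.897 to 1.23, the highest in spermidine replicate 1. Of the 59 members 58 had enough counts to be tested, and Cox7a1, the heart and muscle form of a complex IV subunit, did not (1 to 4 counts per library). The oocyte markers, 12 of 12 genes such as Zp3 and Gdf9, summed to 33310 to 38230 CPM in the young, 38490 to 51000 CPM in the aged and 23680 to 46570 CPM in the spermidine libraries, so every aged library lay above every young one, and spermidine replicates 1 and 2 were lowest. The 13 granulosa and cumulus markers summed to 21.8 to 23.8 CPM in the young, 19.2 to 22.5 CPM in the aged and 20.6 to 29.4 CPM in the spermidine libraries, mostly from Cyp19a1 and Nr5a2, with Amh at 0 in 9 libraries. The 8 theca and stroma markers summed to 2.80 to 3.84 CPM in young, 1.80 to 2.27 CPM in aged and 1.84 to 2.55 CPM in spermidine libraries, higher in every young library than in any other, with Col1a1 at 0 in 7 libraries. The sums were 1.08 to 26.8 CPM in young, 0.66 to 11.8 CPM in aged and 0.73 to 1.304 CPM in spermidine libraries for 10 blood and immune markers. The part of these cells in the results below was not tested.

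Within each complex, levels per transcript length differed by far more than the groups did between members. Values in this paragraph are CPM per 1000 bases of transcript, averaged over the 10 libraries. In complex II the membrane anchor gene Sdhd was highest at 162, followed by the assembly factor gene Sdhaf4 at 81.2, while Sdhaf3 and Sdhaf1 were lowest at 3.13 and 4.19. In complex III the small subunit genes Uqcrh and Uqcrq stood at 525 and 426, and Cyc1, which encodes the haem-bearing cytochrome c1, and the core subunit gene Uqcrc1 at 3.45 and 4.41. The lowest and highest of these complex III levels lay far apart. In complex IV, Cox5a and Cox4i1, which encode subunits around the catalytic core, reached 514 and 332. The haem A synthase gene Cox15 and the copper factor gene Cox11 were lowest of its tested members at 0.104 and 0.557. In complex V the central stalk gene Atp5e and the peripheral stalk gene Atp5h led with 449 and 387, against 10.6 for another central stalk gene, Atp5d, and 13.6 for Atp5g3. For genes with transcripts of very different length these values are uncertain, for example 57.99 to 459 for Atp5g1 and 40.99 to 159.5 for Sdhc between their longest and shortest annotated transcript.

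**Figure D1:**
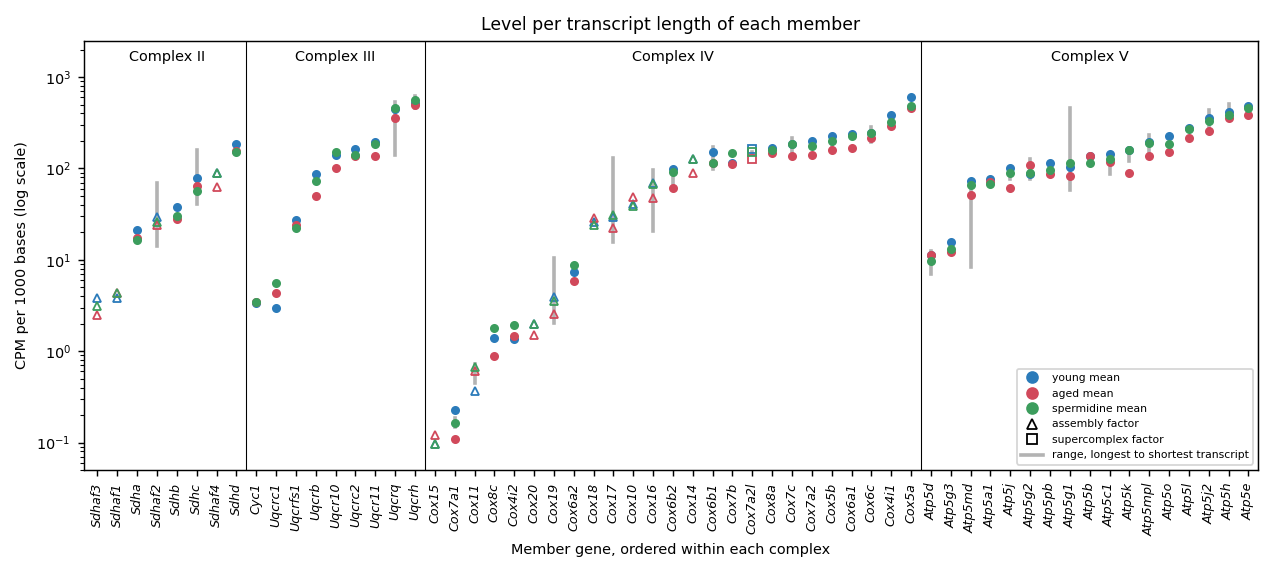
Level of each of the 59 members in CPM per 1000 bases of its median transcript (log scale), by complex, with the young, aged and spermidine means as coloured points and the range from the longest to the shortest transcript as a grey bar. Uqcrh at 525 and Cyc1 at 3.45 CPM per 1000 bases mark the span within complex III, while the 3 group means of a gene lie close together.

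Between aged and young oocytes, 13 of the 58 tested members were lower in aged oocytes and 0 were higher, by the quasi-likelihood F test of edgeR, adjusted by Benjamini and Hochberg's method over 12315 genes, at a threshold of 0.05. Over all tested genes 8.06% were lower and 9.71% higher. The members' median log2 fold change was -0.36, with 48 below 0, against 0.10 for all genes. In 28 members every aged library lay below every young one, against 18.8% of all genes, and in 0 every aged library lay above, against 21.1% of all genes. With total count scaling these counts were 18 and 1 (Atp5g2), against 12.7% and 27.3% of all genes, and of the 13 lower members 11 still had groups that did not overlap, all but Atp5j and Atp5mpl. The members' summed level was 5600 to 7026 CPM in the young libraries, 5075 to 5229 CPM in the aged ones and 5597 to 6267 CPM in the spermidine ones, with the aged libraries below all the others. As a share of total counts they held 0.543% to 0.630% in young, 0.499% to 0.554% in aged and 0.556% to 0.706% in spermidine libraries, where the aged and young ranges overlapped. The number of oocytes behind a library is not given. Where a library holds several cells, a changed mix of cells and less RNA per cell cannot be told apart.

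These calls depended on how the libraries were scaled and on transcript length. With scaling by total counts alone 0 members were lower and 1 was higher (Atp5g2), where 3.29% of all genes were lower and 10% higher, the members' median was -0.21 and that of all genes moved from 0.10 to 0.24, a shift of the whole table. The members' transcripts are short, with a median of 742 bases against 2630.5 bases for all tested genes, and libraries differed in how their levels followed transcript length. Across genes, which are not independent replicates, length was correlated with each library's departure from the mean level. The correlation was -0.21 to -0.11 in young, 0.05 to 0.41 in aged and -0.16 to 0.14 in spermidine libraries. Every young library thus lay below every aged one. Removing the trend may therefore also remove a difference between these groups, which was not tested. For GC content the correlation was -0.26 to 0.11 in young, -0.16 to 0.38 in aged and -0.20 to 0.20 in spermidine libraries. After each library's trend with length and GC content was removed, 1 member was lower (Sdhaf3), 2 were higher (Atp5g2 and Uqcrh), where 5.9% of all genes were lower and 9.58% higher, and the median was 0.03. With straight rather than curved trends 1 was lower (Sdhaf3) and 1 higher (Atp5g2), where 5.39% and 8.3% of all genes were, and the median was -0.0048. DESeq2 called 21 lower and 0 higher, where 10.9% and 10.5% of all genes were. The edgeR count of 13 became 2 when young replicate 1 was left out (3.48% of all genes lower), 5 for young replicate 3 (4.53%), 4 for aged replicate 2 (4.31%) and 3 for aged replicate 3 (4.46%), so calls over all genes became fewer as well. Levels below are TMM-scaled without that correction unless stated.

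**Figure D2:**
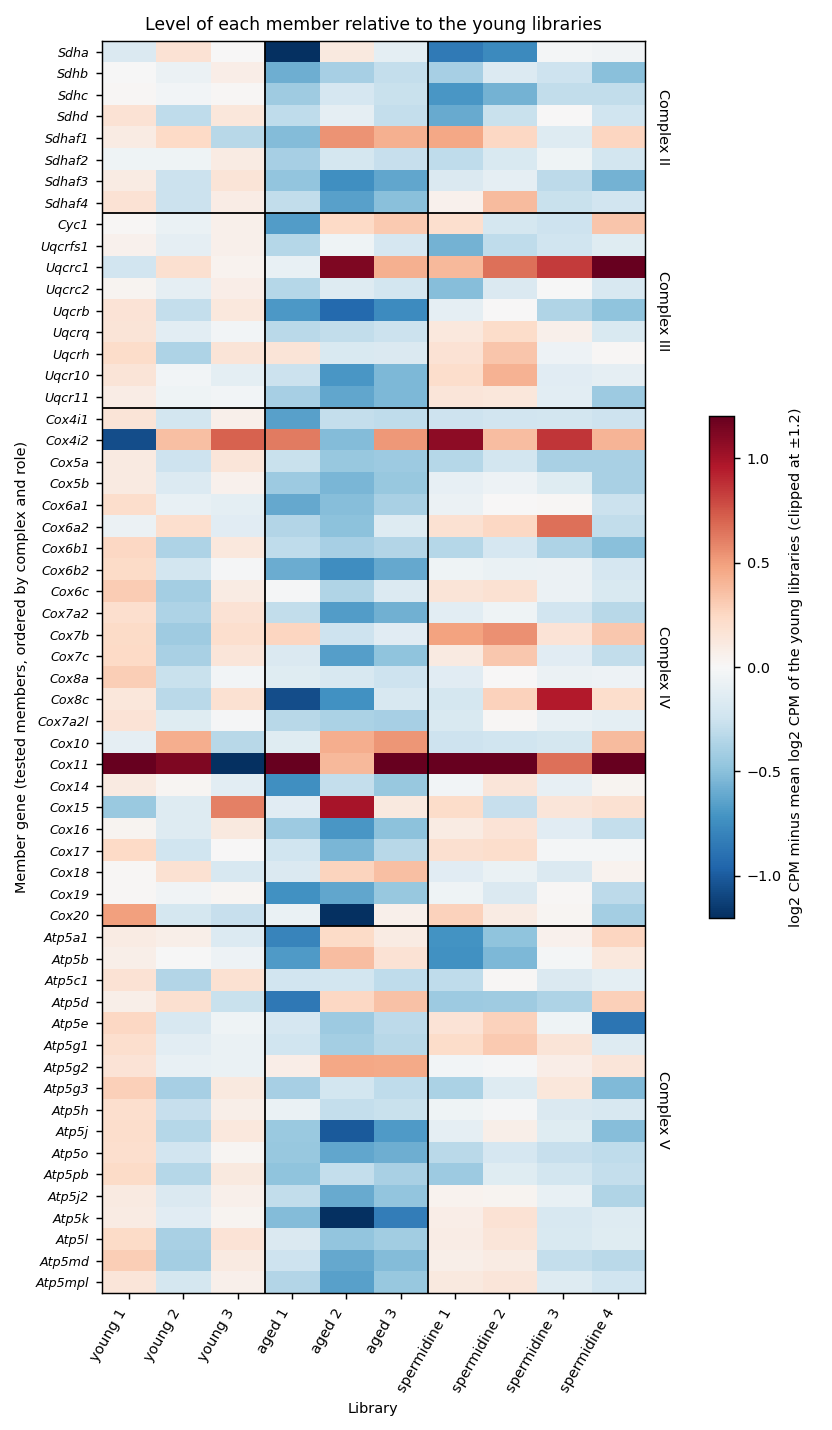
Log2 CPM of the 58 tested members in each of the 10 libraries minus their mean log2 CPM in the young libraries, by complex and role, with differences beyond ±1.2 drawn at that limit. Most rows are blue in the 3 aged libraries, and Sdha, Atp5a1 and Atp5b are low in aged replicate 1 and spermidine replicates 1 and 2. Cox11 stands out because young replicate 3 held 0.0445 CPM.

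Nuclear respiratory genes are known for sharing promoter motifs, above all that of NRF1, so the promoters of members that fell are shown beside those of members that did not pass. RefSeq promoter windows (GRCm38.p6, 250 bases before to 50 after a gene's start) were matched by Gene ID for 45 of the 59 members, in 49 windows. The NRF1 motif, GCGCA and GCGC with any 1 base between them, was found on either strand in 24.5% of these windows, against 4.6% of all 32851 windows. The ETS motif ACCGGAAG was in 8.16% against 2.3%, and the YY1 motif AAGATGGCG in 6.12% against 1.4%. Of the 13 genes lower in aged oocytes, 11 had a window, and 4 of these held NRF1 (Atp5k, Atp5o, Cox6a1 and Sdhaf3), against 8 of 33 among the tested members that were not called. A match is a description of the letters in the window. Shown 5′ to 3′ on the gene's strand with the motif in capitals are NRF1 matches of Atp5k and Cox6a1, which fell, and of Sdha, Sdhd, Atp5g2 and Atp5h, which did not pass, and the YY1 match of Atp5j, which fell.
Atp5k, chr5:108434415-108434474, minus strand: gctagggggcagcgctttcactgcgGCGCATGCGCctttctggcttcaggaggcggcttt
Cox6a1, chr5:115349086-115349145, minus strand: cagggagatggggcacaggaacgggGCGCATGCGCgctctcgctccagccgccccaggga
Atp5j, chr16:84835031-84835089, minus strand: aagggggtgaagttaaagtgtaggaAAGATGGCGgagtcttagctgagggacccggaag
Sdha, chr13:74350304-74350363, minus strand: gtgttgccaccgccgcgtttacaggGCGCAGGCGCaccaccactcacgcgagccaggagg
Sdhd, chr9:50603894-50603953, minus strand: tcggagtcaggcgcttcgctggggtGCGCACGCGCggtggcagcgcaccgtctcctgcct
Atp5g2, chr15:102671055-102671114, minus strand: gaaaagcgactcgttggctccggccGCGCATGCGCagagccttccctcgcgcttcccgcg
Atp5h, chr11:115420026-115420085, minus strand: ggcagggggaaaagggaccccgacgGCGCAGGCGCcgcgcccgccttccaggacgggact
The Atp5k, Cox6a1 and Atp5g2 matches share the palindromic core GCGCATGCGC, as does a match of Uqcrc1 that is not shown. Atp5k and Cox6a1 fell in aged oocytes, and Uqcrc1 did not pass by edgeR (0.55, adjusted p = 0.246). Atp5g2 did not pass either and was higher in 2 of the 3 aged libraries than in any other. Whether the motif bears on these levels was not tested.

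Complex II was lower in aged oocytes in 1 of its 8 genes, the assembly factor gene Sdhaf3, and in 0 of its 4 subunit genes. The share of lower genes over all tested genes was 8.06%. Sdhaf3 (Gene ID 71238), which encodes a factor that helps deliver iron-sulphur clusters to the Sdhb subunit, stood at 17.5, 13.6 and 18.2 CPM in the young libraries, 11.7, 9.78 and 10.6 CPM in the aged ones and 14.5, 15.2, 13.1 and 10.97 CPM in the spermidine ones. Every aged library lay below every young one, while the spermidine libraries reached from the aged into the young range. Sdhaf3 fell in aged oocytes (log2 fold change -0.62, SE 0.18, adjusted p = 0.0332), and this was the 1 lower call left after length and GC correction (-0.60, adjusted p = 0.0151). Without young replicate 1 or 3 or aged replicate 2 or 3 it did not pass (adjusted p up to 0.0988). Sdhaf4, whose product binds the flavin-bearing Sdha before assembly, stood at 68, 50.2 and 64 CPM in the young libraries, 49.1, 38.4 and 42.5 CPM in the aged ones and 62.2, 78.5, 50.02 and 51.5 CPM in the spermidine ones. Its aged libraries were the lowest of the 10, but the difference did not pass (log2 fold change -0.49, adjusted p = 0.0980).

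The catalytic subunits of complex II differed from library to library. Sdha, which encodes the flavoprotein that oxidises succinate, stood at 55.01, 69.7 and 62 CPM in the young libraries, 26.6, 67.01 and 57.1 CPM in the aged ones and 34.4, 36.4, 60.9 and 60.1 CPM in the spermidine ones. Aged replicate 1 and spermidine replicates 1 and 2 were low and the other 7 libraries overlapped, so neither comparison passed (-0.31 in aged minus young, adjusted p = 0.499). Sdhb, the iron-sulphur subunit gene, was more even within groups, at 42.5, 40.7 and 45.1 CPM in the young libraries, 28.4, 32.4 and 35.01 CPM in the aged ones and 32.5, 38.1, 35.9 and 30.3 CPM in the spermidine ones. All aged and all spermidine libraries lay below the young ones, with log2 differences of -0.42 (adjusted p = 0.0616) and -0.32 (adjusted p = 0.202), neither of which passed. The aged difference did pass with DESeq2 (-0.46, adjusted p = 0.0147) and narrowly by edgeR with RLE scaling factors (-0.46, adjusted p = 0.0499). It did not pass with total count scaling or after either length and GC correction.

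The membrane anchor genes of complex II, which hold the haem and the ubiquinone site, had no passing change between spermidine and aged oocytes by edgeR. Sdhc stood at 157, 152 and 157 CPM in the young libraries, 116, 135 and 129 CPM in the aged ones and 95.6, 105, 127 and 126 CPM in the spermidine ones, with both aged and spermidine libraries below the young ones. Its difference between spermidine and young oocytes, -0.45, had an adjusted p of 0.0683 by edgeR, and it passed with DESeq2 (-0.50, adjusted p = 0.00914) and after length and GC correction (-0.42, adjusted p = 0.0220) but not with straight trends (-0.44, adjusted p = 0.0590). Sdhd overlapped between groups, at 251, 181 and 246 CPM in the young libraries, 180.4, 207 and 183 CPM in the aged ones and 147, 185, 224 and 189.7 CPM in the spermidine ones. The assembly factor genes Sdhaf1 and Sdhaf2 did not pass either, with 0.20 (adjusted p = 0.626) and -0.30 (adjusted p = 0.127) in aged minus young. Sdhaf1 ranged from 7.38 to 10.99 CPM in young, 6.47 to 13.5 CPM in aged and 8.34 to 12.9 CPM in spermidine libraries, and Sdhaf2 from 60.3 to 67.3, 47.5 to 53.97 and 50.7 to 60.5 CPM.

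In complex III, 2 of 9 genes fell in aged oocytes, both among the 5 small subunits that surround the electron-carrying core. Of all tested genes 8.06% were lower. Uqcrb (Gene ID 67530), a subunit near the ubiquinone site, stood at 51.1, 37.4 and 49.7 CPM in the young libraries, 28.4, 23.9 and 27.1 CPM in the aged ones and 42.2, 45.7, 35.6 and 32.6 CPM in the spermidine ones. All 3 aged libraries lay below all 7 others. The aged to young ratio was 0.574 (log2 fold change -0.80, SE 0.18, adjusted p = 0.0108) and kept its call whichever library was left out. The call was lost with total count scaling and after either length and GC correction. The small membrane subunit gene Uqcr11 stood at 91.6, 83.2 and 84.5 CPM in the young libraries, 65.4, 56.1 and 59.6 CPM in the aged ones and 95.4, 94.99, 78.97 and 63.7 CPM in the spermidine ones. Its aged and young libraries did not overlap (log2 fold change -0.52, SE 0.16, adjusted p = 0.0470), but the lowest spermidine library was within the aged range, and the call was lost without any 1 of 7 of the libraries.

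The other small subunits of complex III did not pass. Uqcrq, at 248, 204 and 218 CPM in the young libraries, 178, 181 and 186 CPM in the aged ones and 244, 259, 232 and 197 CPM in the spermidine ones, had its aged libraries below all others (log2 fold change -0.30, adjusted p = 0.141). Uqcrh, which encodes the hinge protein beside cytochrome c1, stood at 282, 187 and 269 CPM in the young libraries, 268, 214 and 214 CPM in the aged ones and 273, 305, 233 and 245 CPM in the spermidine ones, with all groups overlapping. Its difference was -0.08 (adjusted p = 0.760) as scaled by TMM but 0.52, adjusted p = 0.0189 after length and GC correction with curved trends, and 0.49, adjusted p = 0.151 with straight ones. The direction for Uqcrh thus depended on the correction. Uqcr10 had its 3 aged libraries, 37.5 to 50.95 CPM, below all others, -0.49 against young (adjusted p = 0.0757).

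The core and catalytic genes of complex III included 0 that passed. Uqcrc1, a core subunit related to processing peptidases, stood at 4.15, 5.57 and 5.03 CPM in the young libraries, 4.57, 10.6 and 6.57 CPM in the aged ones and 6.41, 7.69, 8.75 and 13.6 CPM in the spermidine ones. All 4 spermidine libraries lay above the young ones, and aged replicate 2 and spermidine replicate 4 were highest. The difference between spermidine and young oocytes was 0.89 (95% interval 0.28 to 1.49, adjusted p = 0.129), which passed after length and GC correction with curved trends (0.85, adjusted p = 0.0469) and not with straight ones (0.86, adjusted p = 0.0697). Cyc1 stood at 5.21, 4.88 and 5.38 CPM in the young libraries, 3.24, 6.06 and 6.42 CPM in the aged ones and 5.93, 4.46, 4.33 and 6.48 CPM in the spermidine ones, and its groups overlapped (0.02 in aged minus young, adjusted p = 0.961). The Rieske iron-sulphur gene Uqcrfs1 and the core gene Uqcrc2 differed by -0.19 and -0.24 in aged minus young, and neither passed (adjusted p = 0.376 and 0.250). Whether the small subunits differed from the core as a class was not tested. The median transcripts of the small subunit genes were 434 to 535 bases long. Those of the core and catalytic genes were 1363 to 1896 bases, so class and length cannot be told apart here.

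Complex IV held 6 of the 13 lower genes, 3 of its 14 tested subunits and 3 of its 9 assembly factors, with a median of -0.39 over 24 tested genes. Over all tested genes 8.06% were lower. Among the 10 common subunit genes, each with a difference below 0 (from -0.53 to -0.05), Cox6a1 and Cox5b passed. Cox6a1 stood at 156, 126 and 124 CPM in the young libraries, 88.1, 94.6 and 103 CPM in the aged ones and 128, 135, 136 and 113 CPM in the spermidine ones. All aged libraries were below all others, and the gene fell by 0.51 on the log2 scale (SE 0.14, adjusted p = 0.0280). Cox5b, a zinc-binding subunit gene, stood at 179.8, 148 and 173 CPM in the young libraries, 123, 114 and 121 CPM in the aged ones and 156, 159, 150.1 and 127 CPM in the spermidine ones, again with the aged libraries lowest (log2 fold change -0.48, SE 0.13, adjusted p = 0.0286). Both calls were lost without young replicate 1, aged replicate 2 or aged replicate 3, that of Cox6a1 also without aged replicate 1 and that of Cox5b also without young replicate 3.

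Of the complex IV genes that fell, the lowest fold change was that of Cox6b2 (Gene ID 333182), which encodes the form of the cytochrome c-facing subunit VIb best known from testis. It stood at 49.7, 36.3 and 41.8 CPM in the young libraries, 27.9, 25.2 and 27.6 CPM in the aged ones and 40.8, 40.1, 40.3 and 36.8 CPM in the spermidine ones. The 3 aged libraries formed a narrow range below all 7 others. The gene fell in aged oocytes (log2 fold change -0.66, SE 0.15, adjusted p = 0.0110) and rose with spermidine against aged (log2 fold change 0.55, SE 0.14, adjusted p = 0.0426), comparisons that share the aged libraries. The first call was lost without young replicate 1 (adjusted p = 0.0523), and the second without any 1 of 8 of the libraries (adjusted p up to 0.142). Both were lost with total count scaling and after either length and GC correction.

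Its common counterpart Cox6b1 had a smaller difference, at 85.3, 55.4 and 78.6 CPM in the young libraries, 58.2, 54.4 and 56.3 CPM in the aged ones and 56.8, 62.5, 55.5 and 50.9 CPM in the spermidine ones. The groups overlapped, and neither aged minus young (-0.38, adjusted p = 0.126) nor spermidine minus aged (0.00, 95% interval -0.30 to 0.31, adjusted p = 0.993) passed. Cox6b2 therefore made up 37.0% ± 2.42 (SD, n = 3) of the 2 genes' CPM in young, 32.3% ± 0.628 (SD, n = 3) in aged and 41.2% ± 1.45 (SD, n = 4) in spermidine libraries. This share is a ratio within a library and does not depend on its scaling. The aged libraries lay below all others. Exact two-sided permutation tests gave p = 0.1 for aged against young, the smallest that 3 against 3 can give, p = 0.0286 for spermidine against aged, the smallest that 4 against 3 can give, and p = 0.0857 for spermidine against young, each adjusted to 0.25 over 15 such tests.

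The other alternative isoforms were rare. Cox4i2, the form induced by low oxygen, stood at 0.415, 1.11 and 1.42 CPM in the young libraries, 1.34, 0.606 and 1.25 CPM in the aged ones and 1.84, 1.12, 1.58 and 1.15 CPM in the spermidine ones beside Cox4i1 at 322, 248 and 301 CPM in the young libraries, 183, 236 and 234 CPM in the aged ones and 243, 246, 249 and 243 CPM in the spermidine ones. Cox4i2 was at most 0.749% of their summed CPM in a library, and its groups overlapped. Cox4i1 had its aged libraries below all others, but neither comparison passed (-0.41 in aged minus young, adjusted p = 0.0627). Cox6a2, the heart and muscle form, ranged from 4.58 to 5.78 CPM in young, 3.56 to 4.51 CPM in aged and 4.10 to 7.94 CPM in spermidine libraries, or 2.99% to 5.52% of the Cox6a pair. Cox8c, a testis form, ranged from 0.503 to 0.712, 0.300 to 0.550 and 0.541 to 1.22 CPM, at most 1.37% of the Cox8 pair, and Cox7a1 was at or below 0.145 CPM.

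Of the remaining complex IV subunits 0 passed. Cox7a2 stood at 151, 101 and 147 CPM in the young libraries, 106, 82.1 and 87.6 CPM in the aged ones and 119.8, 126, 112 and 104 CPM in the spermidine ones, where young replicate 2 reached into the aged range (-0.53, adjusted p = 0.0515). Cox7b, at 133, 84.5 and 130.2 CPM in the young libraries, 136, 95.5 and 103 CPM in the aged ones and 159, 166, 127 and 143 CPM in the spermidine ones, had overlapping groups and its highest levels in spermidine replicates 1 and 2. The abundant Cox5a, at 420.1, 329 and 430.2 CPM in the young libraries, 323, 284 and 288 CPM in the aged ones and 308, 336, 297 and 297 CPM in the spermidine ones, had aged libraries below the young ones (-0.40, adjusted p = 0.0638) and a spermidine minus aged difference of 0.05 (95% interval -0.20 to 0.30). Cox6c, Cox7c and Cox8a differed by -0.20, -0.45 and -0.21 in aged minus young, each with overlapping groups. Cox7a2l, whose product joins complexes III and IV into supercomplexes, stood at 201, 163 and 178 CPM in the young libraries, 142, 139 and 137 CPM in the aged ones and 159, 181, 169 and 166 CPM in the spermidine ones. All its aged libraries lay below the others, and the difference from young missed the threshold (log2 fold change -0.38, SE 0.12, adjusted p = 0.0555).

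Among the assembly factors of complex IV, Cox14, Cox16 and Cox19 fell in aged oocytes. Cox14, which acts on newly made Cox1, a catalytic subunit, stood at 97.6, 91.8 and 82.7 CPM in the young libraries, 54.3, 74.1 and 66.2 CPM in the aged ones and 88.6, 100.1, 84.4 and 92.7 CPM in the spermidine ones. Its aged libraries were the 3 lowest, with a difference of -0.48 (SE 0.15, adjusted p = 0.0398). Cox16, which helps place copper in the catalytic subunit Cox2, stood at 46.99, 41.3 and 49.9 CPM in the young libraries, 33.9, 28.2 and 32.6 CPM in the aged ones and 49.1, 51.3, 41.7 and 37.6 CPM in the spermidine ones (log2 fold change -0.54, SE 0.16, adjusted p = 0.0343), a difference that was 0.03 after length and GC correction (adjusted p = 0.878). Cox19, an intermembrane space protein tied to copper supply, was low in all groups, at 5.81, 5.57 and 5.83 CPM in the young libraries, 3.47, 3.71 and 4.18 CPM in the aged ones and 5.53, 5.08, 5.79 and 4.60 CPM in the spermidine ones (log2 fold change -0.60, SE 0.17, adjusted p = 0.0343). For all 3 genes the aged libraries lay below all 7 others. Their calls were lost without any 1 of 6, 4 and 6 of the libraries. Cox16, like Cox11 and Cox18, had counts that were not whole in every library, as happens where reads are divided between sequences, so its level is uncertain.

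The haem and copper factors with long or rare transcripts did not pass in either direction. Cox10, which makes haem O, stood at 109, 158 and 92.7 CPM in the young libraries, 106, 158 and 168 CPM in the aged ones and 98.2, 99.1, 101 and 151 CPM in the spermidine ones, without separation of the groups (0.26 in aged minus young, adjusted p = 0.454). Cox15, at 0.323, 0.395 and 0.667 CPM in the young libraries, 0.400, 0.872 and 0.477 CPM in the aged ones and 0.511, 0.363, 0.486 and 0.499 CPM in the spermidine ones, and Cox11, at 0.553, 0.503 and 0.0445 CPM in the young libraries, 0.767, 0.303 and 0.734 CPM in the aged ones and 1.02, 0.616, 0.365 and 0.652 CPM in the spermidine ones, were rare, and 3 counts in a library stand at 0.0902 to 0.138 CPM, above Cox11 in young replicate 3. With SEs of 0.41 and 0.62 in aged minus young, a modest change in either would not have been detectable. Cox17, the copper chaperone gene, had aged libraries of 40.9 to 50.8 CPM against 50.8 to 70.6 CPM in young and 58.8 to 69.4 CPM in spermidine libraries (aged minus young -0.38, adjusted p = 0.110). Cox18, an insertase for Cox2, and Cox20, a Cox2 chaperone, differed by 0.16 and -0.40, and neither passed.

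Complex V held the tested member of lowest fold change in aged oocytes, Atp5k (Gene ID 11958), subunit e of the membrane part where ATP synthase dimers form. It stood at 55.2, 46.8 and 52.7 CPM in the young libraries, 35.9, 21.98 and 28.95 CPM in the aged ones and 54.4, 57.9, 44.95 and 46.1 CPM in the spermidine ones. The 3 aged libraries lay below all 7 others, and the spermidine libraries reached from just below to just above the young range. Atp5k fell in aged oocytes to a ratio of 0.562 (log2 fold change -0.83, SE 0.19, adjusted p = 0.0115) and kept that call without any 1 library. It rose with spermidine against aged to a ratio of 1.76 (log2 fold change 0.81, SE 0.18, adjusted p = 0.0273), a call lost without young replicate 3, aged replicate 2 or 3, or spermidine replicate 2 or 3 (adjusted p up to 0.108). After length and GC correction with curved trends the rise still passed (0.58, adjusted p = 0.0287) and the fall did not (-0.37, adjusted p = 0.0991). With straight trends neither passed. In an edgeR fit of only the 2 groups compared, the fall passed (adjusted p = 0.0240) and the rise did not. With total count scaling neither passed (0.85, adjusted p = 0.0664 and -0.67, adjusted p = 0.0711).

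Of the other 4 small membrane subunits Atp5mpl, the proteolipid gene, passed, at 105, 81.4 and 98.4 CPM in the young libraries, 73.8, 60 and 68.7 CPM in the aged ones and 102, 104, 84.9 and 79.8 CPM in the spermidine ones (log2 fold change -0.49, SE 0.16, adjusted p = 0.0495). The aged libraries lay below all others, but the call was lost without any 1 of 6 of the libraries, and the difference was 0.11 after length and GC correction. Atp5l, subunit g, stood at 173, 113 and 166 CPM in the young libraries, 131, 106 and 111 CPM in the aged ones and 157, 164, 130.2 and 134 CPM in the spermidine ones, with young replicate 2 inside the aged range (-0.38, adjusted p = 0.151). Atp5j2 and Atp5md differed by -0.46 and -0.48, without passing (adjusted p = 0.0529 and 0.116). All 5 membrane subunits thus had differences below 0 as scaled by TMM, and 3 of the 5 above 0 after the correction.

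The peripheral stalk, which holds the catalytic head still against rotation, had 2 of its 4 genes lower, beside 8.06% of all tested genes. Atp5j, the coupling factor F6 gene, stood at 85.8, 58.3 and 81.03 CPM in the young libraries, 54.3, 36.9 and 46.3 CPM in the aged ones and 68.8, 77.8, 66.8 and 51.9 CPM in the spermidine ones (log2 fold change -0.71, SE 0.20, adjusted p = 0.0311). Atp5o, the oligomycin sensitivity protein at the top of the stalk, stood at 215, 159 and 189.5 CPM in the young libraries, 136, 121 and 125 CPM in the aged ones and 149, 162, 154 and 151 CPM in the spermidine ones (log2 fold change -0.56, SE 0.14, adjusted p = 0.0161). In both genes the aged libraries lay below the young ones, while in Atp5j the spermidine range reached into that of aged. The calls were lost without young replicate 1, aged replicate 2 or aged replicate 3, and for Atp5j without young replicate 3 too. The abundant Atp5h, at 306, 219.9 and 279.7 CPM in the young libraries, 252, 218 and 221 CPM in the aged ones and 257, 264, 235 and 234 CPM in the spermidine ones, overlapped between groups (-0.22, adjusted p = 0.291), and Atp5pb differed by -0.40 (adjusted p = 0.0920).

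The catalytic head and central stalk of complex V had 0 genes that passed. The head genes Atp5a1 and Atp5b differed by -0.09 and 0.02 between aged and young, and like Sdha they were low in single libraries. Atp5b stood at 274, 260 and 250.3 CPM in the young libraries, 163, 338 and 294 CPM in the aged ones and 158, 180.4, 258 and 286 CPM in the spermidine ones, lowest in aged replicate 1 and spermidine replicates 1 and 2. In the stalk, Atp5e stood at 242, 178 and 197 CPM in the young libraries, 177, 151 and 164 CPM in the aged ones and 228, 247, 196 and 111 CPM in the spermidine ones, with spermidine replicate 4 lowest. Atp5d, at 10.9, 11.9 and 8.58 CPM in the young libraries, 5.71, 12.3 and 13.2 CPM in the aged ones and 7.64, 7.69, 8.02 and 12.6 CPM in the spermidine ones, was lowest in aged replicate 1 (-0.01 in aged minus young, adjusted p = 0.987). Atp5c1 had -0.27 (adjusted p = 0.232).

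The 3 genes of the c ring, the rotor of complex V, encode the same mature protein, and their levels followed different patterns. Atp5g1 stood at 319, 255 and 264 CPM in the young libraries, 236, 209 and 221 CPM in the aged ones and 324, 346, 309.5 and 249.9 CPM in the spermidine ones, with the aged libraries below all others (-0.33, adjusted p = 0.139). Atp5g2 stood at 57.2, 47.97 and 48.2 CPM in the young libraries, 53.9, 70.2 and 69.7 CPM in the aged ones and 49.8, 50.3, 53.7 and 56.3 CPM in the spermidine ones, with aged replicates 2 and 3 above all other libraries. Atp5g3 was rarer, at 13.3, 8.26 and 11.8 CPM in the young libraries, 8.28, 9.36 and 8.84 CPM in the aged ones and 8.36, 9.79, 11.95 and 7.56 CPM in the spermidine ones. Atp5g2 was 0.34 higher in aged oocytes as scaled by TMM (adjusted p = 0.124) and passed as higher with total count scaling (0.47, adjusted p = 0.0484) and after both length and GC corrections (0.63, adjusted p = 0.00864 with curved trends and 0.61, adjusted p = 0.0105 with straight ones).

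Within the c ring genes, Atp5g2 made up 15.0% ± 0.386 (SD, n = 3) of the summed CPM in young, 21.9% ± 3.33 (SD, n = 3) in aged and 14.4% ± 2.49 (SD, n = 4) in spermidine libraries. All aged libraries lay above all young and all spermidine ones, from 18.1% against at most 17.9% in spermidine and 15.4% in young libraries. Exact two-sided permutation tests gave p = 0.1 for aged against young, the smallest possible, and p = 0.0571 for spermidine against aged, both adjusted to 0.25 over the 15 tests, and p = 0.8 for spermidine against young. Like the Cox6b2 share, this share does not depend on the scaling of a library, but the transcripts compared differ in length.

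**Figure D3:**
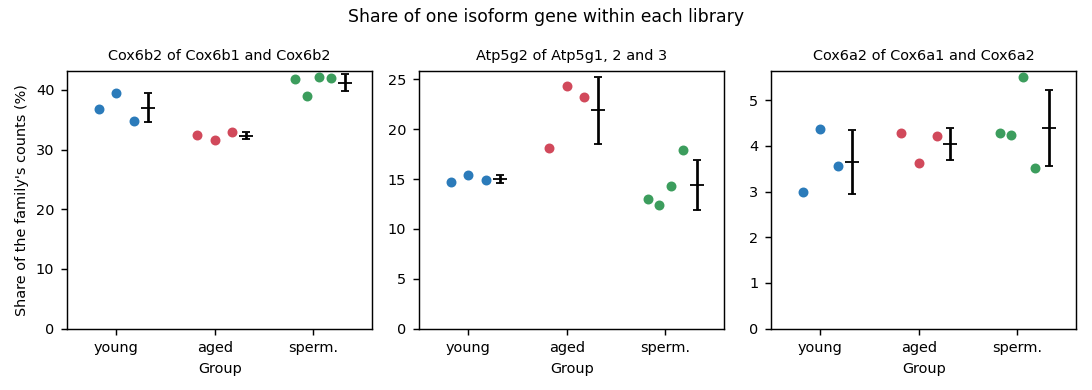
Share of Cox6b2, Atp5g2 and Cox6a2 in the summed CPM of their gene family (percent, y axis from 0) in each library by group, with mean and SD beside the points. The aged libraries lie below all others for Cox6b2 (31.7% to 32.9%) and above all others for Atp5g2 (18.1% to 24.3%), and overlap the others for Cox6a2.

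**Figure D4:**
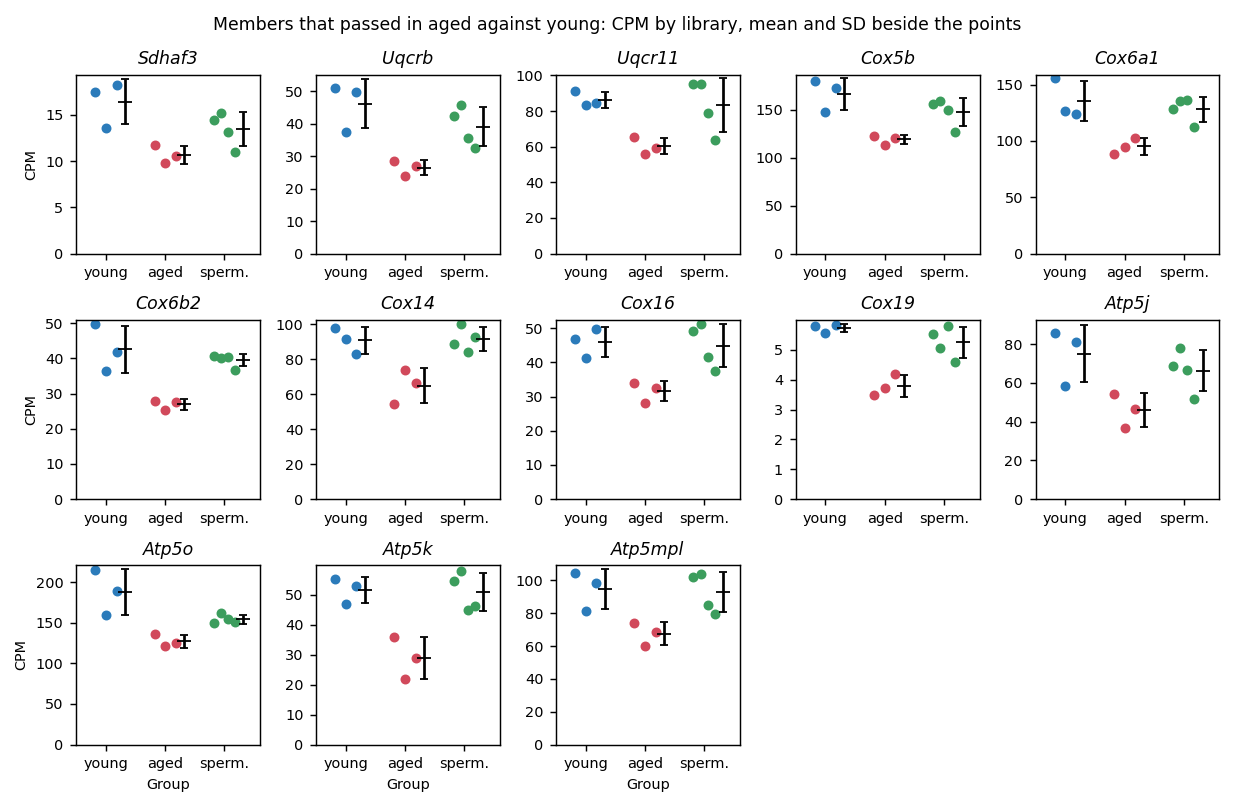
CPM in each library (y axes from 0) of the 13 members that passed in aged against young oocytes, with mean and SD beside the points and sperm. for spermidine. The 3 aged libraries lie below the 3 young ones in each panel, and the spermidine libraries lie within or near the young range in most, as for Atp5k at 44.95 to 57.9 CPM.

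Subunits and assembly factors both included lower genes. In aged minus young, 9 of 44 tested subunits and 4 of 13 assembly factors were lower and 0 of either were higher, with medians of -0.33 and -0.38. By complex, 1 of 8 genes was lower in II, 2 of 9 in III, 6 of 24 in IV and 4 of 17 in V, beside 8.06% of all tested genes. A difference between these classes was not tested. The members with transcripts under 1000 bases included 11 of the 13 lower genes, among 35 tested (median -0.45), and those of at least 1000 bases the other 2, Sdhaf3 and Cox19, among 23 (median -0.25). Cox19 was placed by the median of its transcripts of 475 and 2461 bases. The share of lower genes among all tested genes under 1000 bases was not computed. Whether 11 of 35 is particular to the members was therefore not tested. Across the 58 members the log2 fold change of aged minus young had a Pearson r of 0.42 and a Spearman rho of 0.45 with length, and after correction -0.23 and -0.23, a description over genes that share the same libraries.

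**Figure D5:**
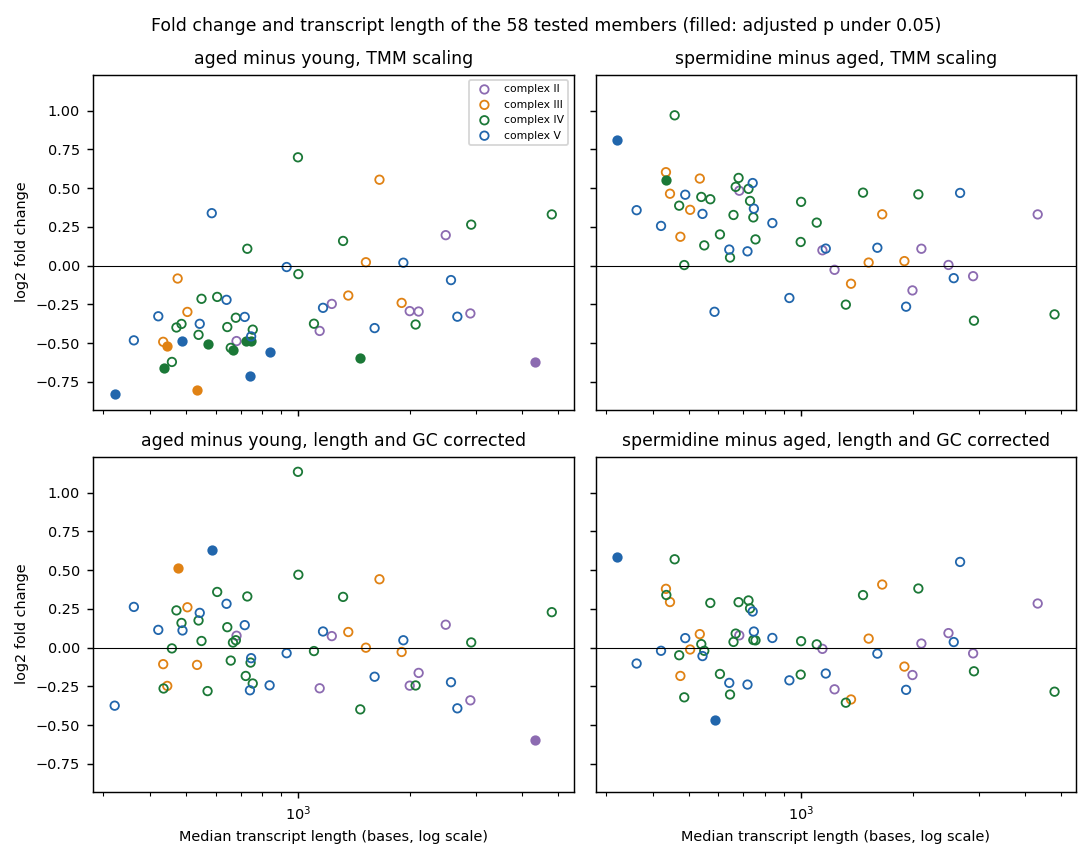
Log2 fold change of the 58 tested members against median transcript length (bases, log scale), for aged minus young and spermidine minus aged, as scaled by TMM and after length and GC correction; filled points passed. In the uncorrected panels short transcripts lie lowest in aged minus young and highest in spermidine minus aged, with Atp5k at -0.83 and 0.81, and in the corrected panels the medians are 0.03 and 0.02.

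With spermidine, 2 of 58 members were higher than in aged oocytes, Atp5k and Cox6b2, and 0 were lower, where 2.42% of all genes were higher and 2.44% lower. The members' median was 0.28, with 47 above 0, against -0.03 for all genes. In 18 members every spermidine library lay above every aged one, against 11.4% of all genes, and in 0 every one lay below, against 8.49%. With total count scaling these counts were 13 and 1 (Sdhc), against 11.4% and 6.44% of all genes. By complex the medians were 0.05 in II, 0.33 in III, 0.36 in IV and 0.26 in V. All 14 tested complex IV subunits and all 5 small complex III subunits had differences above 0. Among the latter Uqcr10 (0.60, adjusted p = 0.0604) and Uqcrb (0.56, adjusted p = 0.0685) came nearest to the threshold by edgeR.

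The number of members that passed with spermidine varied widely between fits. DESeq2 called 10 higher and 0 lower, among them Uqcrb, Uqcr10, Cox14, Cox16 and Atp5g1 beside Atp5k and Cox6b2, where 5.49% of all genes were higher and 6.14% lower. With total count scaling edgeR called 0 members, at 1.24% of all genes higher and 0.861% lower, although 21 members reached 0.05 before adjustment, and the median was 0.31. After length and GC correction Atp5k was higher and Atp5g2 lower (-0.47, adjusted p = 0.0429), where 2.38% and 4.13% of all genes were higher and lower, and the median was 0.02. With straight trends 0 were higher and 1, Atp5g2, was lower, where 1.87% and 2.98% of all genes were. Without spermidine replicate 4, 9 members were higher, as were 4.37% of all genes. The count was 0 without spermidine replicate 2 or 3, aged replicate 2 or 3, or young replicate 3, where 0.433%, 0.741%, 0.335%, 0.494% and 1.1% of all genes were higher. These differences share the aged libraries with those of aged minus young, so their opposite signs are not independent of each other.

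Between spermidine and young oocytes 0 of 58 members passed by edgeR, where 3.44% of all genes were higher and 1.92% lower, and 7 members reached 0.05 before adjustment. DESeq2 called 1 lower, Sdhc, and 0 higher, where 3.99% of all genes were lower and 4.21% higher. After length and GC correction Sdhc was lower and Uqcrc1 higher, where 2.41% and 4.61% of all genes were, and with straight trends 0 passed, where 1.93% and 3.94% were. With total count scaling 0 passed, where 4.91% of all genes were higher and 1.02% lower. The median was -0.09 as scaled by TMM and 0.09 with total count scaling, so its direction depended on scaling. For the genes that fell in aged oocytes the spermidine minus young values were -0.02 for Atp5k (95% interval -0.36 to 0.32), -0.24 for Uqcrb (95% interval -0.56 to 0.08) and -0.11 for Cox6b2 (95% interval -0.37 to 0.16). A value that did not pass does not show equal levels. These intervals use the multiplier of the normal distribution, so they are narrower than the F test implies. Sizes somewhat beyond them also remain possible. In 3 members every spermidine library lay below every young one, against 8.92% of all genes, all of them subunits of complexes II and III (Sdhb, Sdhc and Uqcrfs1), and in 1, Uqcrc1, above, against 12.1% of all genes. With total count scaling 2 lay below (Sdhc and Uqcrfs1) and 3 above (Uqcrc1, Cox7b and Cox8c), against 3.6% and 17.7% of all genes.

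Other factors of these complexes outside the symbol rule were taken from a list of 42 symbols, some of them older names of genes already counted. Of these symbols 34 were tested. In aged minus young 10 were lower and 1 was higher, with a median of -0.39, where 8.06% and 9.71% of all genes were lower and higher. For complex III, Bcs1l, which inserts the Rieske protein, fell from a mean of 5.94 CPM (SD 1.38, n = 3) in young libraries to one of 2.40 CPM (SD 0.347, n = 3) in aged ones (-1.31, SE 0.23, adjusted p = 0.00367). The assembly factor gene Uqcc2 (-0.64, SE 0.14, adjusted p = 0.00939) and Cycs, the cytochrome c gene (-0.76, SE 0.18, adjusted p = 0.0152), were lower too. For complex IV, Surf1, an assembly factor of the haem step (-0.63, SE 0.13, adjusted p = 0.00975), Coa3, Coa4, Cmc2, Higd1a, Higd2a and the subunit gene Ndufa4 were lower and Fastkd3, an RNA-binding protein gene, was higher (0.49, SE 0.14, adjusted p = 0.0361). With spermidine against aged 5 were higher and 0 lower, Bcs1l (0.96, SE 0.22, adjusted p = 0.0313), Surf1 (0.55, SE 0.13, adjusted p = 0.0354), Coa3, Higd2a and Atpif1, the inhibitor of complex V (0.68, SE 0.18, adjusted p = 0.0496), where 2.42% and 2.44% of all genes were higher and lower. Against young, Uqcc2 (-0.52, SE 0.13, adjusted p = 0.0337) and Ttc19 (-0.78, SE 0.20, adjusted p = 0.0458) were lower with spermidine, as were 1.92% of all genes. After length and GC correction 4 of the list were lower and 4 higher in aged minus young, where 5.9% and 9.58% of all genes were.

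In the authors' deposited table, 15 of 59 members were lower and 0 higher in aged against young at a q-value under 0.05, where 5.94% and 5.91% of all genes with a q-value were. They included Sdhb (q = 0.0472), Uqcr10 (q = 0.0482) and Atp5j2 (q = 0.0399), which did not pass by edgeR above. Cox19, which did pass by edgeR, was not among them (q = 0.0509). For spermidine against aged the authors' deposited table has Atp5k and Cox6b2, 2 members, higher and 0 lower, where 1.9% of all genes were higher and 2.19% lower.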

How the data were processed

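RNA of 10 mouse oocyte libraries was profiled, 3 young, 3 aged and 4 spermidine, with groups and replicate numbers from their titles. The authors deposited 1 table. It gives each gene's expected count in every library as deposited, headed as a read count, without a stated scaling. The authors' log2 fold changes stand beside them for 2 comparisons. Each comparison also has p-values and q-values by the authors. RSEM 1.3.1 and Bowtie2 2.3.4.3 are listed in the submitters' processing notes, as are the mm9 build and DESeq2 1.4.5, with no step given for any. Whether counting used strand is not given in the sources used here.

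After rounding, the expected counts were tested with edgeR 4.0.16 in R 4.3.3 (TMM scaling, filterByExpr, robust quasi-likelihood F test, 1 fit of 10 libraries), with adjustment over 12315 genes for each comparison. SEs are those implied by the F statistic, and 95% intervals are built from them. Libraries held 24222185 to 28730790 counts. Intervals reflect how libraries varied within groups as well as counting error, while the floor of 3 counts covers counting only. The reads had no molecular identifiers. Transcript length and GC content came from GENCODE M21 (GRCm38) by Gene ID, as the median over a gene's basic protein-coding transcripts, for 97.4% of tested genes and 59 of 59 members. This build is not the files' mm9, so no gene coordinates are given, and promoter windows carry those of RefSeq's GRCm38.p6. Length and GC trends were fitted per library with natural splines of 4 degrees of freedom and used as offsets. Isoform shares were compared by exact permutation tests over libraries.

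The alternatives were DESeq2 1.42.0, RLE factors, scaling by total counts, length and GC correction, omission of the filter, a minimum of 10 CPM in 3 libraries, a fit without the robust option, a fit of the 2 groups alone, a replicate block, and each library left out. Straight-line trends and the removal of 2 libraries together were added after seeing the data. The members and all lists were chosen with earlier results of these data known. Named with values were members that passed, isoform families, the 2 highest and 2 lowest members per length of each complex and all of complex II, and from the list of other factors those that passed or had the smallest p. Values of Uqcr10, Atp5b and other members outside that rule were chosen after they were seen. The procedure was tested on simulated data. Figures used Python 3.11.15 with matplotlib 3.10.9.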

Additional observations from a re-analysis of the deposited data

Results flagged for a closer look

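In the spermidine group of 4 libraries, the highest and the lowest value of each of 58 members were compared with the nearest other, and 3 members had 1 library further away than Dixon's 95% limit allows, which is about the 1 in 20 groups that chance flags. Cox10, the haem O synthase gene, stood at 151.3 CPM in spermidine replicate 4 and at 98.2 to 100.8 CPM in the other 3. Atp5d, a central stalk gene of complex V, stood at 12.58 CPM in the same library and at 7.64 to 8.02 CPM in the others. Cox15, the haem A synthase gene, stood at 0.3626 CPM in spermidine replicate 2 and at 0.486 to 0.511 CPM in the others, only just past the limit and at 7 to 23 counts per library. The cause was not tested.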

How the results depend on the processing

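The count of 13 lower members in aged minus young became 17 with RLE factors, 9 with a stricter filter, 11 with only the 2 groups and 12 without the robust fit, all lower. Over all genes, lower calls in these fits were 1110 of 12315, 562 of 5784, 1003 of 11885 and 980 of 12315. The members' count became 21 with DESeq2 and 6 without a filter, all lower, and 1, higher, with total count scaling. Of all genes 10.9% were lower with DESeq2, 753 of 18448 were lower without a filter, and 10% were higher with total count scaling. After length and GC correction the members' count was 3 (2 higher, 1 lower) with a median of 0.0334, and with straight trends 2 with a median of -0.0048. With 1 library left out it ran from 2, without young replicate 1, to 19, without young replicate 2 or spermidine replicate 1, with medians from -0.45 to -0.31, and it was 5 without young replicate 3, 4 without aged replicate 2 and 3 without aged replicate 3. Of all genes 3.48%, 6.53% and 9.78% were lower without young replicate 1, young replicate 2 and spermidine replicate 1. The shares were 4.53%, 4.31% and 4.46% without young replicate 3, aged replicate 2 and aged replicate 3. For spermidine minus aged, the count of 2 became 10 with DESeq2, 1 without a filter, 0 with total count scaling and 0 with only the 2 groups. Of all genes 5.49% were higher with DESeq2 and 1.24% with total count scaling. Higher calls were 193 of 18448 genes without a filter and 65 of 12138 with only the 2 groups. After the corrections the members' medians were 0.0247 and 0.0346, the latter with 1 member called, as lower. Leaving out single libraries gave 0 (young replicate 3, aged replicate 2 or 3, spermidine replicate 2 or 3) to 9 (spermidine replicate 4), and without spermidine replicates 1 and 2 together it was 0 with a median of 0.1869. Of all genes 0.335% to 1.1% were higher in the single-library fits that gave 0, and 4.37% without spermidine replicate 4. Without spermidine replicates 1 and 2 together 0.169% were higher. For spermidine minus young, the count of 0 became 1 with DESeq2, 2 after length and GC correction, 0 to 1 when single libraries were left out (1, lower, without aged replicate 1) and 1, higher, when spermidine replicate 1 and aged replicate 1 were both removed. Of all genes 3.02% were lower without aged replicate 1, and 3.95% were higher with both libraries removed. The members' median with total count scaling was 0.0926. Of the 13 lower members, Cox16 (0.03306) and Atp5mpl (0.111, and 0.07769 with straight trends) changed sign after correction. Over all 58 tested members, 48 lay below 0 in aged minus young before the correction and 28 after it with curved trends. The cause was not tested.

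With a replicate block the counts were 15 lower in aged minus young, 8 higher in spermidine minus aged and 0 in spermidine minus young, where 8.41% of all genes were lower in the first and 3.52% higher in the second. Same-numbered libraries correlated at -0.275 to 0.408 in their departures from the group means, and not every library correlated best with its own number, so the numbers were not taken to pair samples. Members at the level of a few counts, Cox7a1, Cox11, Cox15 and Cox20, are limited by depth.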
